A study of Mus musculus with 16 samples.

Results

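Leucine, isoleucine and valine, the branched-chain amino acids, are broken down in mitochondria, and the genes described here are 10 of that pathway: Bcat2, Bckdha, Bckdhb, Dbt, Bckdk, Ppm1k, Ivd, Mccc1, Mccc2 and Hibadh. They were taken as all probes of the array whose RefSeq accession maps to these genes, which gave 18 probes out of 56605. All 18 lay well above background on all 16 arrays and none was saturated, so all 10 genes were among the 13725 genes tested.

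The arrays measured RNA of the heart apex from 16 male C57Bl/6 mice aged 3 months. There were 4 mice per group: controls, AKT1 KO mice, AKT2 KO mice and mice with both genes targeted, labelled AKT1+AKT2 DKO (DKO below). AKT1 and AKT2 are protein kinases that act downstream of insulin and growth factor receptors. All 4 groups, control included, were heterozygous for MerCreMer, a Cre recombinase that hydroxytamoxifen switches on, under the αMHC promoter of cardiomyocytes. By the labels the knockout mice were homozygous for floxed alleles, with loxP sites around exons 6 to 7 of Akt1, exons 5 to 6 of Akt2, or both pairs, and control mice carried MerCreMer alone. Every mouse was given hydroxytamoxifen on 5 days at 500 µg per day, and the hearts were collected 21 days after induction. The sample titles say "untreated", in contrast to this description. Deletion is limited to cells in which the αMHC promoter is active, so RNA of other heart cells comes from cells that keep Akt1 and Akt2.

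The pathway starts with a transaminase, encoded in muscle and heart mainly by Bcat2, which moves the amino group of each amino acid and leaves a branched-chain keto acid. A large complex, the branched-chain keto acid dehydrogenase, then removes a carboxyl group in the step that commits the carbon to breakdown. Its kinase, Bckdk, switches the complex off and its phosphatase, Ppm1k, switches it on, and further enzymes carry the products to the citric acid cycle. Heart muscle oxidises branched-chain keto acids, and lower expression of the pathway is known from failing hearts.

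Levels are log2 intensities from which the array's 75th percentile was subtracted, so they can be compared between arrays for 1 probe but not between probes. Akt2 gave the check of the labels: it read 4.91 ± 0.062 in control and 4.78 ± 0.18 in AKT1 KO hearts, against 2.54 ± 0.092 in AKT2 KO hearts and 2.91 ± 0.10 in DKO hearts (SD, n = 4 each). The Akt1 probe read 5.13 ± 0.032, 5.23 ± 0.26, 5.17 ± 0.10 and 5.11 ± 0.076 in the same order, and where it lies relative to the deleted exons is not known here, so it does not check the label. Of the cardiomyocyte markers, 7 of 7 fell in DKO hearts, with summed levels of 10.9 to 11.2 against 11.4 to 11.6 in control hearts. Of the fibroblast markers, 7 of 7 rose there, with summed levels of 8.2 to 8.5 against 7.56 to 7.64. None of these genes was called in AKT1 KO or AKT2 KO hearts. In the authors' values, and likewise with quantile normalization, only 3 of 7 cardiomyocyte markers fell. In these bulk samples fewer cells of a type and less RNA per cell cannot be told apart. DKO replicate 3 and AKT1 KO replicate 1 lay farthest from their group means over all genes, at a root mean square of 0.523 and 0.307 log2 units, where the other arrays lay at 0.16 to 0.286.

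Each knockout was compared with control, and a gene was called at a limma adjusted p under 0.05, adjusted by Benjamini-Hochberg over the 13725 genes. In AKT1 KO hearts 0 of the 10 genes were called, where 0.794% of all genes were, and 2 (Bckdha and Bckdk) had an unadjusted limma p under 0.05, where 7.41% of all genes had one. In AKT2 KO hearts 1 of the 10, Bcat2, was called, where 0.131% of all genes were called and 0.0729% were called higher. All 10 were called in DKO hearts, where 45.6% of all genes were: Bcat2 rose, as 24.4% of all genes did, and the other 9 fell, as 21.2% did. The 10 genes had a median log2 change of -0.12 in AKT1 KO hearts, -0.09 in AKT2 KO hearts and -0.71 in DKO hearts, and that of all genes was -0.03, -0.02 and 0.02. The 3 comparisons share the same 4 control arrays. By values per array, the 4 AKT2 KO arrays did not overlap with control for 1 of the 10 genes (7.62% of all genes). The 4 DKO arrays did not overlap with control for all 10 (44.4% of all genes). Without both AKT1 KO replicate 1 and DKO replicate 3 the DKO count was again 10, where 56.5% of all genes were called. Within slide 1 and slide 2, with 2 arrays per group, it was 10 and 7, where 41.2% and 18.0% of all genes were called.

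**Figure D1:**
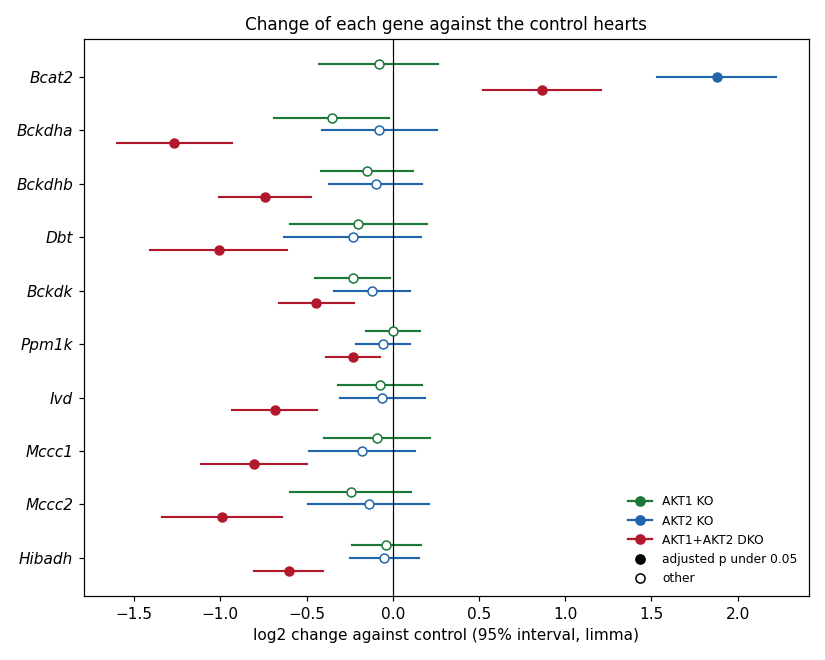
Log2 change of each of the 10 genes against control hearts (x axis) in AKT1 KO, AKT2 KO and DKO hearts, with the 95% interval of limma; filled points passed an adjusted p of 0.05. Bcat2 is the only gene to the right of 0 among the filled points, and the 9 other DKO points lie between -1.27 and -0.23.

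Bcat2 encodes the mitochondrial branched-chain aminotransferase, the first enzyme of the pathway. In control hearts its first probe read 2.85, 2.84, 2.62 and 2.81. AKT1 KO hearts read 2.30, 2.72, 2.87 and 2.90. AKT2 KO hearts read 4.68, 4.70, 4.67 and 4.57, and DKO hearts 3.43, 4.18, 3.63 and 3.36. The 4 AKT2 KO arrays were the highest and lay close together, the 4 DKO arrays lay between them and the controls without overlap, and control and AKT1 KO arrays overlapped. Against control, Bcat2 rose by 1.88 ± 0.16 log2 units in AKT2 KO hearts (SE, 3.67-fold, limma adjusted p = 2.47e-05). In DKO hearts it rose by 0.87 ± 0.16 (SE, 1.83-fold, adjusted p = 0.000531). It was lower in DKO than in AKT2 KO hearts by a log2 difference of -1.01 ± 0.16 (SE, 2.01-fold, limma adjusted p = 0.000192). AKT1 KO differed from control by -0.08, with a 95% interval of -0.43 to 0.26 (limma adjusted p = 0.999). AKT2 KO hearts were above AKT1 KO hearts by 1.96 (limma adjusted p = 8.72e-06), the only one of the 10 genes called between the single knockouts, where 0.896% of all genes were called.

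A second Bcat2 probe, assigned to the RefSeq transcript NM_009737 where the first is assigned to NM_001243052, gave the same order. It read -2.62 to -2.03 in control and -2.57 to -2.39 in AKT1 KO hearts, and rose to -0.91 to -0.70 in AKT2 KO and -1.99 to -1.50 in DKO hearts. The rise was 1.47 (2.77-fold) in AKT2 KO and 0.55 (1.47-fold) in DKO hearts, with limma adjusted p = 3.07e-05 and 0.00269 over all 26396 kept probes. With normexp background correction this probe rose less, by 1.07 in AKT2 KO and 0.33 in DKO hearts (limma adjusted p = 0.000156 and 0.0262). Where the probes lie in the transcripts is not known here. At probe level 2 of the 18 probes were called in AKT2 KO hearts, both of Bcat2, where 0.125% of all kept probes were. Of the 18, all were called in DKO hearts, 16 of them lower, where 40.0% of all kept probes were called.

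**Figure D2:**
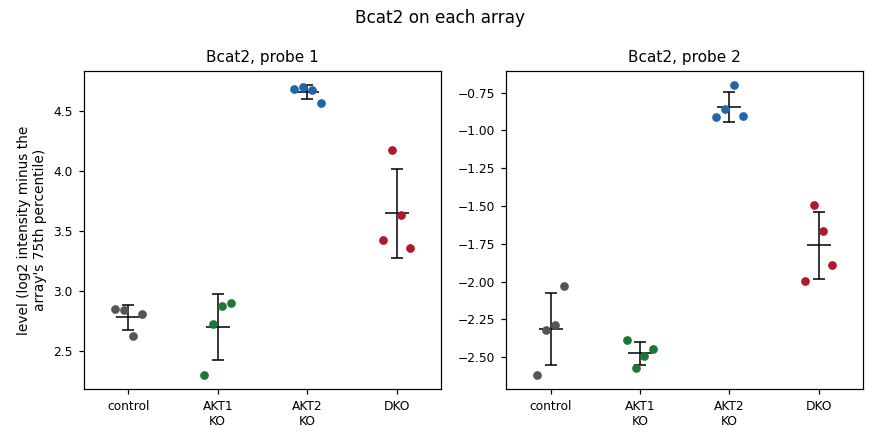
Level of Bcat2 (y axis, log2 intensity minus the array's 75th percentile) on each of the 16 arrays by group (x axis), for its 2 probes; points are arrays and bars the mean and SD of 4. On both probes AKT2 KO arrays are highest and DKO arrays lie between them and the control arrays, and the 2 panels have separate scales.

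The AKT2 KO rise was similar on each slide, 1.85 on slide 1 and 1.90 on slide 2, but with 2 arrays per group neither passed the threshold across all genes (limma adjusted p = 0.105 and 0.169). With slide as a block it was 1.88 (adjusted p = 2.19e-05). The DKO rise was 0.96 on slide 1 (limma adjusted p = 0.0152) and 0.78 on slide 2 (adjusted p = 0.055). Adipocyte markers, of which Adipoq, Plin1 and Retn did not pass the filter, had summed levels of -0.95 to -0.31 in AKT2 KO and -0.97 to -0.47 in control hearts, and none of the 3 tested was called in that comparison. In DKO hearts their summed levels were -0.59 to 0.44, with 2 of the 3 called higher and 1 lower. Their part in the DKO rise of Bcat2 was not tested.

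Bcat2 lies on chromosome 7, at 45568967 to 45589710 of GRCm38.p6, and Akt2 on the same chromosome at 27591552 to 27640826, with 18 Mb between their starts. All 18 genes called in AKT2 KO hearts lie on chromosome 7, out of 1093 genes tested there. Within 1 Mb of the start of Bcat2, 4 of 74 other genes (5.41%) were called in AKT2 KO hearts, where 1.65% of the genes tested on chromosome 7 were. Kcnj14, a potassium channel subunit, rose by 4.9 and Ush1c, a scaffold protein, by 2.32, while Ftl1, a ferritin light chain, and Mamstr, a transcriptional coactivator of muscle, had log2 changes of -1.0 and -1.25. The same 4 genes in DKO hearts gave 3.03 for Kcnj14, 1.22 for Ush1c and -1.24 for Mamstr, all called, and Ftl1 was not called. In that comparison 40 of the 74 neighbours were called, or 54.1%, where 45.6% of all genes and 46.3% of those on chromosome 7 were. In AKT1 KO hearts 2 of the 74 neighbours were called, where 0.794% of all genes were. They were Kcnj14 at -1.59 and Aldh16a1 at -1.29 (limma adjusted p = 0.0088 and 0.00031), where Bcat2 itself was at -0.08 and not called. Of all genes tested, those with the highest Pearson correlation with Bcat2 over the 16 arrays were Kcnj14 (0.955), Blvrb (0.934), Ush1c (0.858), Klk1b22 (0.851) and Klk1b3 (0.833). All 5 lie on chromosome 7, and the arrays share their group means, so the correlations describe the group pattern. Whether the position of Bcat2 bears on its level was not tested.

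**Figure D3:**
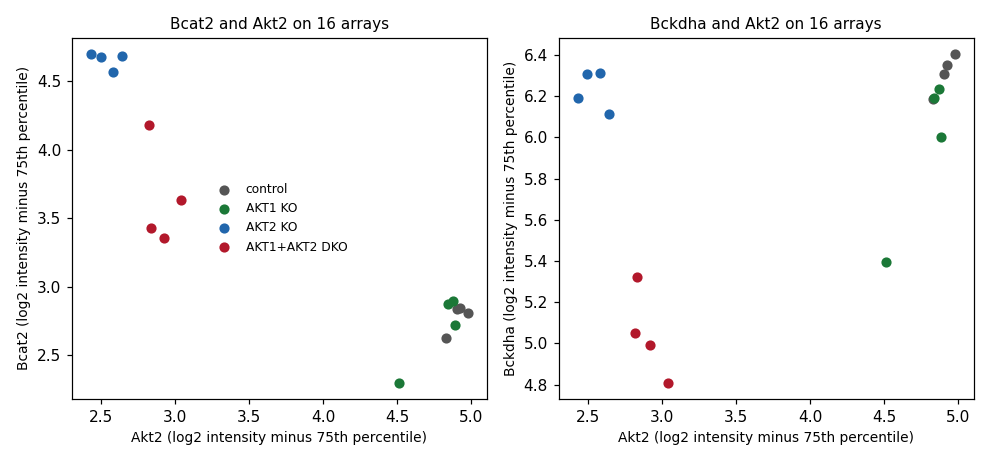
Levels of Bcat2 (left) and Bckdha (right) on the y axis against the level of Akt2 on the x axis, all as log2 intensity minus the 75th percentile, on 16 arrays coloured by group. Bcat2 is above the control arrays in both groups with low Akt2, and Bckdha is lowest in the DKO group while the AKT2 KO arrays, also low in Akt2, lie at 6.12 to 6.31.

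The start regions of Bcat2 are shown because it alone rose, beside those of Bckdha, which fell most in DKO hearts, and of Hibadh. Hibadh was the only one of the 9 genes with a window to hold a FoxO-type match. The regions are RefSeq windows of 300 bases in GRCm38.p6, from 250 bases before to 50 after an annotated start. Those of Bcat2 are chr7:45569903-45570202 and chr7:45571029-45571328 on the plus strand, both inside the gene as placed above and past its start at 45568967. The others are chr7:25658712-25659011 on the minus strand for Bckdha and chr6:52640251-52640550 on the minus strand for Hibadh. Capitals mark matches on either strand to GTAAACA, the FoxO type, or CACCC, the KLF type; FoxO factors are known targets of AKT, and KLF15 is a known regulator of this pathway in muscle.
Bcat2 window 1: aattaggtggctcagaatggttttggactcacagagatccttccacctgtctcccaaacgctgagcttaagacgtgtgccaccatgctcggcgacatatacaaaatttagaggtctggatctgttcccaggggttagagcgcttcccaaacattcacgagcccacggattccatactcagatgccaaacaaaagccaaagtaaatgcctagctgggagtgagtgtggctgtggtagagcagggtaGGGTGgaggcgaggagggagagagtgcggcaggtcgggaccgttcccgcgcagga
Bcat2 window 2: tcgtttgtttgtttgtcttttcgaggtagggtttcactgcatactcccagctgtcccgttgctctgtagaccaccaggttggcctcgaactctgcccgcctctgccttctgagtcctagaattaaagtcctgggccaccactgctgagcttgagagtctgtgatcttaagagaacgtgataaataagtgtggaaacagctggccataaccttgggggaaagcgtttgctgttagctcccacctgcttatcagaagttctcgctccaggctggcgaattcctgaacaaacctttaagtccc
Bckdha window: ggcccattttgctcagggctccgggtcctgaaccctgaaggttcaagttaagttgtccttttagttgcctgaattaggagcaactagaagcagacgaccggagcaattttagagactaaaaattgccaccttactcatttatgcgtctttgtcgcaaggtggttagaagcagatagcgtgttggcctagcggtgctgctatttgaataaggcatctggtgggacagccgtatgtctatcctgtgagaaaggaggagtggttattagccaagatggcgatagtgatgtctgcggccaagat
Hibadh window: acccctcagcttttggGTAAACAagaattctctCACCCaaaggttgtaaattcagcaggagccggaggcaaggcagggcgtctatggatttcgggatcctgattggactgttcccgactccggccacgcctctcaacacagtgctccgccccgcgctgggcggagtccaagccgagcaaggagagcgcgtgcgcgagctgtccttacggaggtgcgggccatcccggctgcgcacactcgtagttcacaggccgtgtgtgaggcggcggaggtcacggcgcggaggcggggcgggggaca
The first Bcat2 window holds 1 KLF-type match, read on the opposite strand, and the second Bcat2 window and the Bckdha window hold no match of either type. The table held 11 windows for 9 of the 10 genes, with none for Dbt. A FoxO-type match was in 1 of the 11, where 3.65% of all 32851 windows had one, and a KLF-type match was in 7 of the 11, where 57.5% had one. A match is a run of letters and not a measured binding site.

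The dehydrogenase complex is built from a decarboxylase, whose α and β subunits are encoded by Bckdha and Bckdhb, and a core acyltransferase encoded by Dbt. Bckdha read 6.35, 6.31, 6.19 and 6.40 in control hearts. It read 5.40, 6.00, 6.19 and 6.24 in AKT1 KO and 6.12, 6.19, 6.31 and 6.31 in AKT2 KO hearts. DKO hearts read 5.32, 5.05, 4.81 and 4.99. All 4 DKO arrays were below every other array, and the lowest of the rest was AKT1 KO replicate 1. Bckdha had the largest fall of the 10 genes in DKO hearts, by 1.27 ± 0.16 log2 units (SE, 2.41-fold, limma adjusted p = 1.74e-05). It fell by 1.14 on slide 1 and by 1.39 on slide 2 (limma adjusted p = 0.000958 and 0.0207). Its AKT1 KO difference was -0.36 ± 0.16 (SE, unadjusted p = 0.0381, limma adjusted p = 0.618), and without AKT1 KO replicate 1 it was -0.17 (adjusted p = 0.954). Bckdha also lies on chromosome 7, at 25629852 to 25658782, and its start is 1.96 Mb from that of Akt2. In AKT2 KO hearts it differed from control by -0.08 (95% interval -0.41 to 0.25). There 0 of 30 genes within 1 Mb of it were called (limma, adjusted p under 0.05), where 0.131% of all genes and 1.65% of those on chromosome 7 were. At such shares a count of 0 among 30 genes says little.

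Bckdhb, on chromosome 9, read 4.57, 4.70, 4.55 and 4.66 in control and 4.23, 3.86, 3.53 and 3.90 in DKO hearts. The groups did not overlap, and AKT1 KO (4.25 to 4.68) and AKT2 KO arrays (4.44 to 4.63) overlapped with control. It fell in DKO hearts by 0.74 ± 0.13 (SE, 1.67-fold, limma adjusted p = 0.000255), and its second probe by 0.75. Dbt, on chromosome 3, read -0.02, -0.01, -0.25 and -0.10 in control and -0.60, -0.92, -1.82 and -1.08 in DKO hearts. DKO replicate 3 was the lowest array for it, and the other 3 DKO arrays were also below every control array. It fell by 1.01 ± 0.19 (SE, 2.01-fold, limma adjusted p = 0.000523), by 0.74 on slide 1 and by 1.28 on slide 2, the slide that held DKO replicate 3.

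The kinase and the phosphatase act on the complex in opposite ways. Bckdk, the kinase that inactivates it, lies on chromosome 7 at 127904073 to 127909664, with its start 100 Mb from that of Akt2. It read 3.09, 3.00, 2.91 and 3.09 in control hearts and 2.55, 2.62, 2.98 and 3.01 in AKT1 KO hearts. AKT2 KO hearts read 3.01, 2.78, 2.90 and 2.91, and DKO hearts 2.63, 2.58, 2.51 and 2.59. The DKO arrays lay close together below all control and AKT2 KO arrays, and the 4 AKT1 KO arrays formed a low and a high pair, so that AKT1 KO and DKO overlapped. Bckdk fell in DKO hearts by 0.44 ± 0.10 (SE, 1.36-fold, limma adjusted p = 0.00262). Its AKT1 KO difference of -0.23 had an unadjusted p of 0.0388 (limma adjusted p = 0.622), and without AKT1 KO replicate 1 it was -0.15 (adjusted p = 0.943). DKO and AKT1 KO hearts differed by -0.21 (limma adjusted p = 0.102), and without AKT1 KO replicate 1 by -0.29 (adjusted p = 0.0223).

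Ppm1k encodes the mitochondrial phosphatase that activates the complex, and its 3 probes did not give the same size of change. The brightest read 8.45, 8.35, 8.42 and 8.49 in control and 8.11, 8.13, 8.29 and 8.26 in DKO hearts, the smallest fall of the 10 genes, by 0.23 ± 0.073 (SE, 1.17-fold, limma adjusted p = 0.0182). The groups did not overlap, but this call depended on the scaling: under quantile normalization the change was -0.03 (limma adjusted p = 0.721) and in the authors' values -0.02 (adjusted p = 0.824). It also missed the threshold without control replicate 4, DKO replicate 1 or DKO replicate 2 (limma adjusted p = 0.0563, 0.0523 and 0.051). The intensity of that probe was 182200 to 275600, under the lowest saturation value of 780022. The second probe read 2.02, 2.22, 2.17 and 2.23 in control and 1.92, 1.45, 0.48 and 1.48 in DKO hearts. It fell by 0.82 ± 0.22 (SE, 1.77-fold, probe-level limma adjusted p = 0.00841), and under quantile normalization by 0.83 (adjusted p = 0.00844). The third, dimmest probe fell by 0.58 ± 0.18 (SE, probe-level limma adjusted p = 0.0209), with -0.51 under quantile normalization (adjusted p = 0.112) and -0.30 with normexp background correction (adjusted p = 0.0702). On that probe the single knockouts were at -0.41 in AKT1 KO and -0.42 in AKT2 KO hearts, with unadjusted p of 0.0425 and 0.0383 and probe-level limma adjusted p of 0.787 and 1.

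Behind the complex, leucine carbon passes through Ivd, the isovaleryl-CoA dehydrogenase, and then through methylcrotonyl-CoA carboxylase, a biotin enzyme whose subunits are encoded by Mccc1 and Mccc2. Ivd, on chromosome 2, read 4.90, 4.97, 4.87 and 4.98 in control and 4.48, 4.19, 4.05 and 4.25 in DKO hearts. Its DKO arrays were below all 12 others, and it fell by 0.69 ± 0.11 (SE, 1.61-fold, limma adjusted p = 0.000235). Mccc1, on chromosome 3, read 3.70, 3.67, 3.57 and 3.67 in control and 3.12, 2.97, 2.29 and 3.01 in DKO hearts. DKO replicate 3 stood apart below the rest of its group, and all 4 DKO arrays were below control. Mccc1 fell by 0.80 ± 0.14 (SE, 1.75-fold, limma adjusted p = 0.000393). Mccc2, on chromosome 13, read 1.79, 1.62, 1.52 and 1.72 in control and 0.98, 0.72, 0.08 and 0.89 in DKO hearts. It fell by 0.99 ± 0.16 (SE, 1.99-fold, limma adjusted p = 0.000216), with the same array lowest. In AKT1 KO and AKT2 KO hearts the ranges of all 3 genes overlapped with control. The second probes of Ivd, Mccc1 and Mccc2 fell by 0.92, 0.99 and 1.0 in DKO hearts.

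Hibadh encodes 3-hydroxyisobutyrate dehydrogenase, an enzyme of the valine branch, and lies on chromosome 6. It read 5.35, 5.41, 5.28 and 5.32 in control hearts and 5.04, 5.34, 5.40 and 5.43 in AKT1 KO hearts. AKT2 KO hearts read 5.31, 5.29, 5.29 and 5.28, and DKO hearts 4.89, 4.77, 4.50 and 4.79. The DKO arrays were below all others, and the AKT2 KO arrays lay close together near the control arrays. Hibadh fell by 0.60 ± 0.094 (SE, 1.52-fold, limma adjusted p = 0.000129), and its second probe by 0.74.

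**Figure D4:**
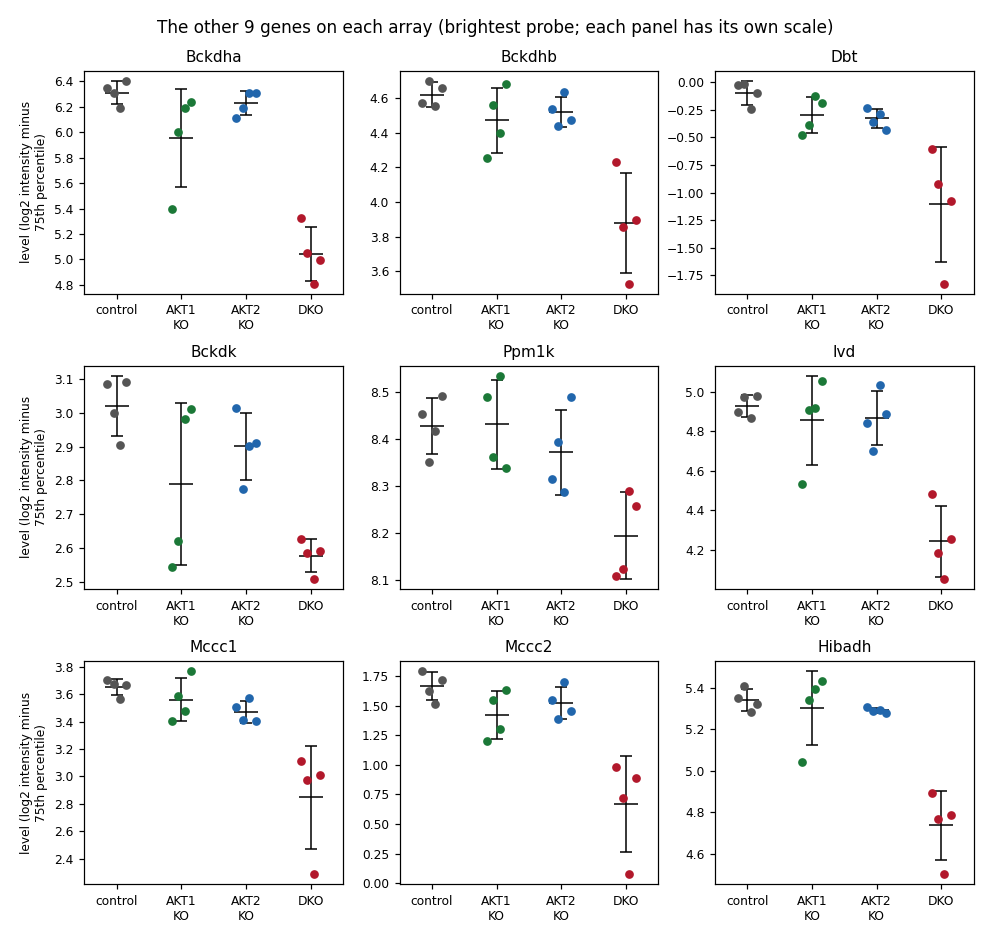
Level of the other 9 genes on each array (y axis, log2 intensity minus the 75th percentile, brightest probe, separate scales) by group (x axis); points are arrays and bars the mean and SD of 4. In every panel the 4 DKO arrays lie below the 4 control arrays, and DKO replicate 3 is the lowest DKO array in all panels except that of Ppm1k.

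The double knockout was then set against each single knockout. Against AKT1 KO hearts, 9 of the 10 genes were called in DKO hearts (47.0% of all genes), 8 of them lower (20.3% of all genes) and Bcat2 higher by 0.95 (limma adjusted p = 0.000255). Bckdk was the exception. Against AKT2 KO hearts, 9 of the 10 were called, all lower (18.6% of all genes were lower and 42.1% called). The exception was Ppm1k at -0.18 (limma adjusted p = 0.0672), and Bcat2 was among the 9. The median change of the 10 genes was -0.60 against AKT1 KO and -0.63 against AKT2 KO hearts, and that of all genes 0.04 and 0.02.

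The departure from additivity is the DKO change minus the sum of both single-knockout changes. It was below 0 for all 10 genes on their brightest probes, with a median of -0.54 where that of all genes was 0.05. Of the 10 genes, 4 were called, all lower, where 26.0% of all genes were called and 10.1% called lower. They were Bcat2 (-0.93 ± 0.23, limma adjusted p = 0.00843), Bckdha (-0.83 ± 0.22, 0.0127), Ivd (-0.55 ± 0.16, 0.0221) and Hibadh (-0.52 ± 0.13, 0.0107), each with its SE. For Bckdha, Ivd and Hibadh this means a fall in DKO hearts larger than the single changes summed to. For Bcat2 it means that the DKO rise was smaller than the AKT2 KO rise. Bckdhb missed the threshold at -0.49 (limma adjusted p = 0.053). The third Ppm1k probe gave 0.25, above 0 (probe-level limma adjusted p = 0.525). Without a filter on dim probes Ivd missed the threshold (limma adjusted p = 0.0557), which left 3 of the 10, where 11.2% of 22873 genes were called. Without DKO replicate 1 the count was 8, where 25.7% of all genes were called. It was 7 without both AKT1 KO replicate 1 and DKO replicate 3, where 38.8% were called, and 7 with quantile normalization, where 26.8% were.

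Within groups the genes were compared by their deviations from each group's mean. Over the 28 pairs among the genes other than Bcat2 and Ppm1k, the Pearson correlation over 16 arrays was 0.406 to 0.967, with a median of 0.767, and Mccc1 and Mccc2 had the highest. For all 8 of these genes AKT1 KO replicate 1 and DKO replicate 3 were the lowest arrays of their groups, and over the 14 arrays without them the pairs ran from 0.168 to 0.898, with a median of 0.576. Pairs with Bcat2 ran from -0.304 to 0.454, and from -0.292 to 0.192 over the 14 arrays. Pairs with the brightest Ppm1k probe ran from -0.697 to -0.0943, and from -0.628 to 0.14 over the 14 arrays. Pairs with the other Ppm1k probes were not tested, so these values hold for the brightest probe only. Among DKO arrays, replicate 3 was the highest on that probe (8.29). It was the lowest on Ppm1k probe 2 (0.48) and probe 3 (-4.02), as for the 8 genes. Among AKT1 KO arrays, replicate 1 was not the lowest on any Ppm1k probe. The points share the array and its scaling, so the correlations are descriptions.

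Other genes of the pathway were counted from a list of 17, all tested. None was called in AKT1 KO or AKT2 KO hearts. In DKO hearts 14 fell, where 21.2% of all genes did, and 0 rose, with a median of -0.79 where that of all genes was 0.02. For additivity 10 were called, all lower, where 10.1% of all genes were called lower. Acad8, the isobutyryl-CoA dehydrogenase of the valine branch, fell by 0.89 ± 0.081 (SE, limma adjusted p = 1.11e-06). Acat1, a mitochondrial thiolase, fell by 0.97 ± 0.099 (SE, adjusted p = 3.08e-06), and Pcca, the α subunit of propionyl-CoA carboxylase, by 1.11 ± 0.14 (SE, limma adjusted p = 1.98e-05). Dld, the lipoamide dehydrogenase that the branched-chain complex shares with related complexes, fell by 0.87 ± 0.10 (SE, limma adjusted p = 1.1e-05). Bcat1, the cytosolic aminotransferase, was not called at 0.72 ± 0.39 (SE, limma adjusted p = 0.147). Under 4 other scalings 13 to 15 of the 17 fell and none rose.

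The related keto acid dehydrogenase complexes, which use pyruvate or 2-oxoglutarate, showed counts of the same kind. Of 12 tested genes of these complexes and their regulators 9 fell in DKO hearts, where 21.2% of all genes did. Their median was -0.69, and none was called in the single knockouts. Pdhx, a binding protein of the pyruvate complex, fell by 1.14 ± 0.094 and Dlst, the acyltransferase of the 2-oxoglutarate complex, by 0.75 ± 0.082 (SE, limma adjusted p = 5.12e-07 and 6.02e-06). Pdhb, the β subunit of the pyruvate decarboxylase, fell by 0.82 ± 0.11 (SE, limma adjusted p = 2.7e-05). The acyltransferase of the pyruvate complex, Dlat, fell by 0.95 ± 0.13 (limma adjusted p = 3.35e-05). These acyltransferases, like Dbt, carry a lipoate group. Of the 3 genes of lipoate synthesis and transfer Lipt2, a lipoyltransferase, fell by 1.36 ± 0.10 (SE, limma adjusted p = 2.02e-07), and Lias (-0.01) and Lipt1 (-0.30) were not called. Lipt1 was called lower with normexp background correction, at -0.25 (limma adjusted p = 0.0492). Without both AKT1 KO replicate 1 and DKO replicate 3 all 3 were called lower, with Lias at -0.18 and Lipt1 at -0.19 (limma adjusted p = 0.0175 and 0.0294).

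Of 6 carriers of branched-chain amino acids 1 was called in DKO hearts, where 45.6% of all genes were. Slc43a1, a neutral amino acid carrier, rose by 0.40 ± 0.11 (SE, limma adjusted p = 0.00668). It was not called under quantile normalization, in the authors' values or with normexp. Slc25a44, the mitochondrial carrier of these amino acids, was at 0.25 ± 0.12 (SE, limma adjusted p = 0.103). Slc7a5 had the largest difference of the 6, -0.96 ± 0.46 (SE, limma adjusted p = 0.104), and its level differed between slides. On slide 1 it read -2.067 and -2.265 in control and -3.074 and -3.095 in DKO hearts. On slide 2 it read -0.837 and -0.887 in control and -1.734 and -1.991 in DKO hearts. Of 3 regulators Ppara, a nuclear receptor that drives fatty acid oxidation genes, fell by 0.48 ± 0.11 (SE, limma adjusted p = 0.00192). Klf15 was at 0.10 (limma adjusted p = 0.654) and Ppargc1a at -0.37 (adjusted p = 0.0955). The falls of the pathway in DKO hearts stand beside the lower cardiomyocyte and higher fibroblast marker levels given above, whose part in them was not tested.

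**Figure D5:**
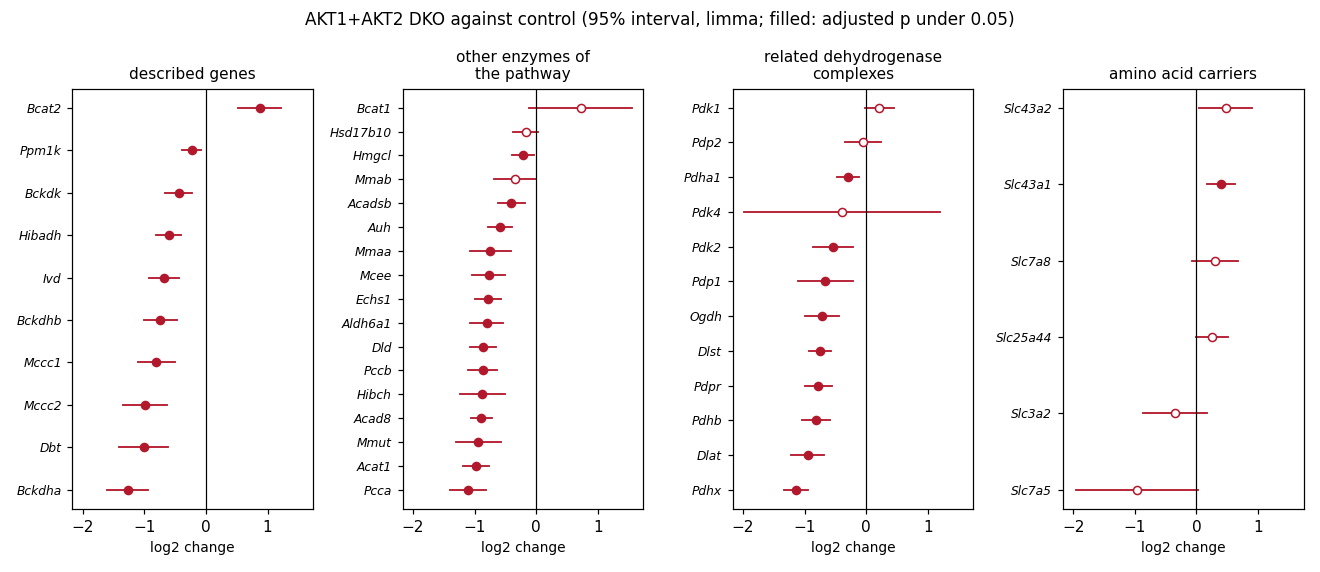
Log2 change in DKO against control hearts (x axis, with the 95% interval of limma) for the 10 genes, 17 other enzymes of the pathway, 12 genes of related dehydrogenase complexes and 6 amino acid carriers, ordered by change within each panel; filled points passed an adjusted p of 0.05. Bcat2 is the only filled point above 0 in the first 3 panels.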

How the data were processed

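Total RNA (100 ng per sample) of 16 mouse hearts was hybridised to 1-colour Agilent arrays. The intensity of each spot, per the file headers, was extracted and background-subtracted with Feature Extraction 12.0.3.1. A table of log2 values normalized and centred by the authors served as an alternative. Each probe's median there was 0, column medians were -0.0245 to 0.0134, and the values correlated at 0.99997 to 1 with quantile-normalized log2 intensities centred in the same way, so both alternatives test nearly the same values. From each log2 intensity the array's 75th percentile (492.1 to 809.4 in intensity) was subtracted, and 43.1% to 54.0% of probes per array lay well above background. The filter kept probes that some group had well above background on its 4 arrays, 118 with outlier flags were dropped, and the brightest probe stood for a gene. Groups came from the labels. The number of arrays limits the precision.

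Comparisons used limma 3.58.1 in R 4.3.3 (files were read by data.table, version 1.17.8), 1 mean per group over 16 arrays with 12 residual degrees of freedom, and Benjamini-Hochberg adjustment with 0.05 as the threshold. The script was tested on simulated data. The genes, lists and motifs were chosen with earlier results of these data known. All 10 genes were named, from each list up to 4 called genes per comparison by smallest adjusted p plus genes not called whose values a reader would look for, called genes within 1 Mb of Bcat2 in AKT1 KO or AKT2 KO hearts, and the 5 genes most correlated with Bcat2. Other cell type lists, with counts called higher and lower in DKO hearts, were endothelial (0 and 1 of 5), smooth muscle (2 and 1 of 5), macrophage (3 and 0 of 6), adipocyte (2 and 1 of 3), atrial (1 and 0 of 3), red cell (0 and 0 of 3) and skeletal muscle markers (0 and 2 of 2). Of the skeletal muscle list Myh1 and Myh4 did not pass the filter, which left Ckm and Acta1, and of the atrial list Sln did not. Alternatives were normexp (offset 50), quantile normalization, the authors' values, scaling to detected probes' median, other filters on dim probes, averaging a gene's probes, array weights, a robust prior with a trend, fits of the compared groups alone, blocks (slide, slide with row, replicate number), fits within each slide, leaving out each array, and, chosen after seeing the data, leaving out both AKT1 KO replicate 1 and DKO replicate 3 (also for within-group correlations). Both slides carried 2 arrays per group, and each group lay in 1 array column, so column and group cannot be told apart. Promoter sequences are those of RefSeq (GRCm38.p6).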

Additional observations from a re-analysis of the deposited data

Results flagged for a closer look

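Among 72 sets of 4 arrays (18 probes in 4 groups) 3 had an array far from the others by Dixon's test, where chance gives about 1 in 20. The second Bckdhb probe read 3.612 in control replicate 2, with 3.41 the next of its group. The first Mccc1 probe read 2.29 in DKO replicate 3, with 2.974 the next. The second Hibadh probe read 3.547 in AKT2 KO replicate 3, with 3.393 the next.

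The effect of targeting Akt2 differed between hearts with and without targeted Akt1 for 4 genes, by the test of additivity: Bcat2 (-0.925), Bckdha (-0.832), Ivd (-0.55) and Hibadh (-0.517, limma adjusted p from 0.00843 to 0.0221 over the 4). Akt2 itself was higher in DKO than in AKT2 KO hearts by 0.37 log2 units (limma adjusted p = 0.00424). Its departure from additivity was 0.50 (limma adjusted p = 0.0101). The cause of these departures, and whether the Akt2 difference bears on the 4 genes, was not tested.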

How the results depend on the processing

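No called change of the 10 genes turned its sign under any alternative run. Over all comparisons and alternatives 2115 changes of single genes kept their direction and their side of the threshold, 34 lost a call, 36 gained one and 45 that were not called turned their sign, and the cause was not tested. Within slide 1 the AKT2 KO count against control was 0 and that for additivity 2, where 0.0801% and 19.7% of all genes were called. Within slide 2 AKT2 KO gave 0 against control (0.0219% of all genes) and 0 against AKT1 KO (0.0583%). DKO gave 4 there against AKT1 KO (19.8% of all genes) and 5 against AKT2 KO (13.9%), and additivity gave 0 (1.37%). These fits have 2 arrays per group. The additivity count was 7 under quantile normalization (26.8% of all genes called), in the authors' values (26.9%) and with the mean of the probes of a gene (25.1%). It was also 7 with array weights (44.8% of all genes) and without both AKT1 KO replicate 1 and DKO replicate 3 (38.8%). It was 3 without a filter on dim probes, where Ivd was lost, and 5 with normexp, median scaling, a strict filter or a trended prior. Leaving out each array in turn gave 4 to 8 for additivity, with 8 without DKO replicate 1, where 21.1% to 35.0% of all genes were called. It gave 9 to 10 for DKO against control (38.4% to 51.1% of all genes). For DKO against AKT1 KO and against AKT2 KO it gave 8 to 10 (41.2% to 53.7% and 35.6% to 47.5% of all genes). The count did not change in the other comparisons. Same-numbered arrays of different groups were not shown to be paired (15 of 24 pairs with a correlation of deviations over 0.1, range -0.35 to 0.392). With a replicate block the counts were 0, 1, 10, 9, 9, 1 and 4, as without it. The shares of all genes called were then 0.576%, 0.124%, 46.2%, 47.4%, 42.2%, 0.765% and 25.4%. Arrays of different groups that shared slide and row had a correlation of deviations over 0.1 in 19 of 24 pairs, range -0.0366 to 0.392. The main fit has no term for this. With slide and row as a block the counts were again 0, 1, 10, 9, 9, 1 and 4. The shares of all genes called were 0.736%, 0.124%, 47.6%, 49.3%, 43.8%, 0.852% and 27.3%. Of the 10 genes Ppm1k lost its call in DKO against control most often, under 7 of 32 alternatives. Its limma adjusted p was 0.0505 without a filter on dim probes.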
